A study of Rattus norvegicus with 6 samples.

Results

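The microRNAs miR-221 and miR-222 were followed through both of their arms, rno-miR-221-3p, rno-miR-221-5p, rno-miR-222-3p and rno-miR-222-5p (rno, rat), which are 4 of the 1071 miRNA rows in the deposited table. The rows were chosen by name, not by their values. Small RNA libraries were made from rat sciatic nerve fibroblasts of wild type genotype that had received no treatment. Of the 6 samples, 3 held RNA of the vesicles that the cells release (extracellular vesicles, EV, which the study's design terms exosomal) and 3 held RNA from inside the cells (Intracellular), the controls. All 6 carry the same batch label, and nothing in the labels says that the replicates were grown or taken separately. The p-values below thus cover the spread of these 3 libraries a group, whether biological or technical. How the vesicles were purified is not given in the sources used here, and animal age is likewise not given.

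miRNAs are cut from a hairpin precursor, and usually one arm of the hairpin is loaded into Argonaute while the other is degraded. The loaded arm recognises target mRNAs mainly through its seed, bases 2 to 8. miR-221 and miR-222 are transcribed together and are known as repressors of the cell cycle inhibitor Cdkn1b (p27Kip1) and of the receptor Kit. In rat sciatic nerve they have been studied as miRNAs that promote proliferation and migration of Schwann cells after injury.

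In the RefSeq tables of build GRCr8, Mir221 and Mir222 lie on the same strand of chromosome X with 0 annotated genes between them. The deposited counts were made on another build, so no coordinates are given. The mature sequences are shown because the relation between the arms rests on them. They come from RefSeq (4 of 4 arms matched by name), and the sequences deposited with the counts are the same. The seed is in capitals:
miR-221-3p: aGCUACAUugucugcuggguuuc
miR-222-3p: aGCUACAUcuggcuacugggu
miR-221-5p: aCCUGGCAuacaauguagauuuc
miR-222-5p: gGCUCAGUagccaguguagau

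The 3p arms share the seed, and no other mature rat miRNA of the RefSeq table has it. Among the rows of the count table with a deposited sequence, these 2 were also the ones with this seed. Their first 8 bases are identical, and 11 of the first 21 positions are. After base 8 the longest run found in both is 6 bases, CUGGGU. The 5p arms have different seeds, each found in 1 RefSeq miRNA, and are identical at 5 of 21 positions. The GC content is 47.8% for miR-221-3p, 52.4% for miR-222-3p, 39.1% for miR-221-5p and 52.4% for miR-222-5p. The hairpins, with the 5p and then the 3p arm in capitals, show the place of each arm in its precursor:
Mir221: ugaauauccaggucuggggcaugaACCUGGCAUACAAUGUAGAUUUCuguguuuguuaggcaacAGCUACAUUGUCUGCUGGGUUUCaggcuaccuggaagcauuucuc
Mir222: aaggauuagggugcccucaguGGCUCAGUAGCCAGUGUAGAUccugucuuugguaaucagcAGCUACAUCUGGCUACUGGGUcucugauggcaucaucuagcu

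The EV libraries held 81211 to 105578 counts and the Intracellular libraries 1839047 to 8859302, and levels are given as CPM, counts per 1000000 counts of the library. 1 EV count was worth 9.47 to 12.3 CPM, and an Intracellular one 0.113 to 0.544 CPM. The TMM scaling factors were 1.35, 1.26 and 1.17 in EV replicates 1, 2 and 3, all above those of the Intracellular libraries. Among the latter, Intracellular replicate 1 had a factor of 0.557, lower than the 0.963 of replicate 2 and the 0.935 of replicate 3. The 6 fibroblast markers together took 30.2% to 33.8% of EV counts and 32.6% to 33.0% of Intracellular counts, most of them from miR-143-3p. Among them, miR-152-3p averaged 33332 ± 11552 CPM in the EV libraries and 7535 ± 1989 CPM in the Intracellular ones (SD, n = 3 each), and miR-214-3p 1098 ± 279 CPM in the EV ones and 249 ± 90.6 CPM in the Intracellular ones. Both were called higher by edgeR with TMM and with total counts. Of the other 4 markers, 3 were called lower with TMM and 0 with total counts (1 with an unadjusted p under 0.05, and 0 by limma on log2(TPM + 1)). The glial markers took 0% to 0.00474% of EV and 0.000816% to 0.00201% of Intracellular counts. Of these, miR-338-3p had 6 EV and 238 Intracellular counts, and miR-219a-5p had 0 EV counts and 1 Intracellular count. Endothelial markers took 0.0260% to 0.0436% of EV and 0.0141% to 0.0390% of Intracellular counts. Leukocyte markers took 0.00189% to 0.00325% and 0.00114% to 0.00371%, in that order. The summed EV counts were 4 for miR-142-3p, 3 for miR-150-5p, 0 for miR-223-3p and 0 for miR-142-5p. The Intracellular ones were 311, 50, 6 and 14, in that order. The erythroid markers miR-486 and miR-451-5p took 0.0152% to 0.0222% of EV and 0.000203% to 0.000598% of Intracellular counts. The liver miRNA miR-122-5p took 1.12% to 1.37% of EV and 0.0118% to 0.0345% of Intracellular counts. The part of these markers in the levels below was not tested. In such samples, fewer cells or vesicles of a type and less RNA in each cannot be told apart.

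miR-221-3p was by far the most abundant of the 4 arms in every library of both groups. Its counts were 235, 296 and 232 in EV replicates 1, 2 and 3, against 3719, 10379 and 20000 in Intracellular replicates 1, 2 and 3. As CPM, its level was 2894, 2804 and 2513 in the EV replicates and 2022, 3133 and 2258 in the Intracellular ones. The EV values lay between the Intracellular ones, with replicate 1 lowest and replicate 2 highest of the Intracellular libraries, so the groups overlapped. The mean level was 2737 ± 199 CPM in the EV libraries and 2471 ± 585 CPM in the Intracellular ones (SD, n = 3 each; 2-sided exact permutation p = 0.5). Counting error in EV was of the size of the replicate spread: the 95% Wilson interval of EV replicate 1 ran from 2547 to 3287 CPM. By count it was the 38th, 38th and 37th miRNA of EV replicates 1, 2 and 3, and the 27th, 30th and 34th of the Intracellular ones.

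miR-222-3p, the arm with the same seed, was present at about one order of magnitude less. It had 8, 27 and 24 counts in EV replicates 1, 2 and 3, against 211, 591 and 1186 in Intracellular replicates 1, 2 and 3. Its level was 98.5, 256 and 260 CPM in the EV replicates and 115, 178 and 134 CPM in the Intracellular ones. EV replicate 1 was the lowest of all 6 libraries and EV replicates 2 and 3 were the highest, so the groups overlapped here too. The mean was 205 ± 92.0 CPM in the EV libraries and 142 ± 32.7 CPM in the Intracellular ones (SD, n = 3 each; 2-sided exact permutation p = 0.4). The 8 counts of EV replicate 1 gave a 95% Wilson interval of 49.9 to 194 CPM, which overlapped those of EV replicates 2 (176 to 372 CPM) and 3 (175 to 387 CPM).

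miR-221-5p, the passenger arm of miR-221, was measured from single-digit counts in EV. It had 7, 4 and 2 counts in EV replicates 1, 2 and 3, against 47, 189 and 471 in Intracellular replicates 1, 2 and 3. This was 86.2, 37.9 and 21.7 CPM in the EV replicates and 25.6, 57.0 and 53.2 CPM in the Intracellular ones. EV libraries were the highest and the lowest of the 6. The means were 48.6 ± 33.6 CPM in the EV libraries and 45.3 ± 17.2 CPM in the Intracellular ones (SD, n = 3 each; 2-sided exact permutation p = 1). At the pooled Intracellular level, 4.10, 5.33 and 4.66 counts would have been drawn in EV replicates 1, 2 and 3.

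miR-222-5p, the passenger arm of miR-222, was at 0 counts in all 3 EV libraries and in Intracellular replicates 1 and 2, and had 2 counts in Intracellular replicate 3. A count of 0 allows a level of up to 36.9, 28.4 and 32.5 CPM in EV replicates 1, 2 and 3 (3 counts per library), and of up to 1.63 and 0.906 CPM in Intracellular replicates 1 and 2. The pooled Intracellular level was 0.143 CPM, at which the EV libraries would hold 0.0116 to 0.0151 counts each. Pooled over the EV libraries, 3 counts were 10.7 CPM. A lower level of miR-222-5p in EV, or a higher one under that limit, was therefore not detectable at the EV depth. miR-222-5p did not pass the filter on low counts and was not tested.

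**Figure D1:**
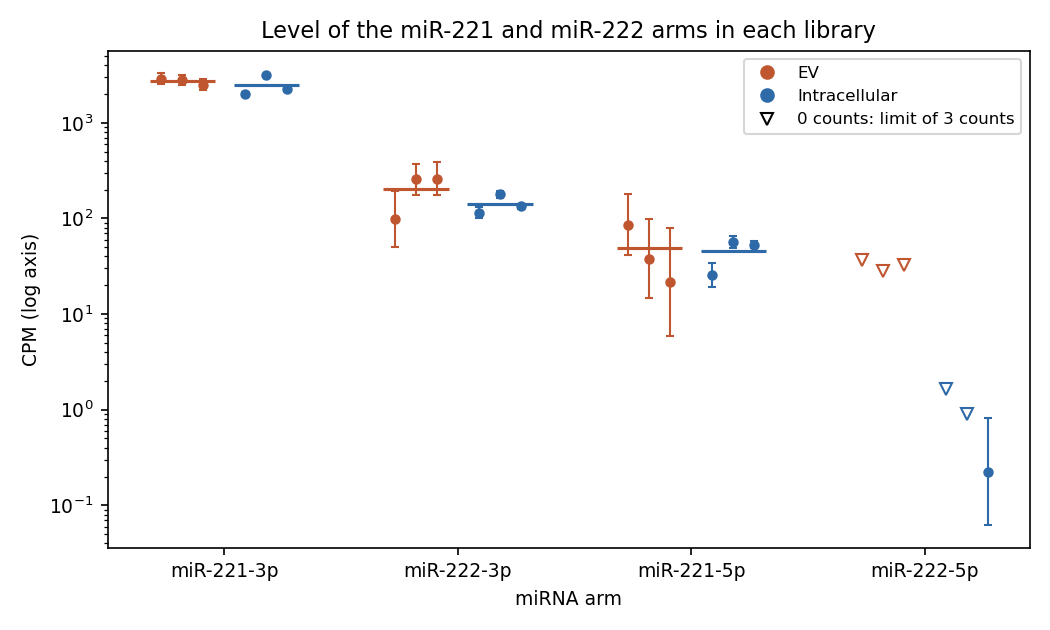
Level in CPM (log axis) of each arm in the 3 EV (left) and 3 Intracellular (right) libraries, with 95% Wilson intervals for counting error. Horizontal bars are group means where every library had counts, and open triangles mark libraries with 0 counts at the limit of 3 counts. miR-221-3p lies at 2513 to 2894 CPM in the EV replicates and 2022 to 3133 CPM in the Intracellular ones, and the groups overlap for each of the 3 arms with counts in every library.

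Counts of all miRNAs were then compared by edgeR's quasi-likelihood test with TMM scaling, EV minus Intracellular, with Benjamini-Hochberg adjustment over the 328 miRNAs that passed the filter, and a miRNA was called at an adjusted p under 0.05. Of the 3 arms tested, 1 was called lower and 0 higher, beside 17.1% of all tested miRNAs called lower and 25.6% called higher. By DESeq2 none of the 3 was called, and 1 had an unadjusted p under 0.05 by edgeR. miR-221-3p had a log2 fold change, with TMM, of -0.51 (SE 0.19, edgeR adjusted p = 0.0406), but of 0.15 (SE 0.27, adjusted p = 0.752) when libraries were scaled by total counts. The change of miR-221-5p was -0.55 (SE 0.45, edgeR adjusted p = 0.340), and that of miR-222-3p was -0.082 (SE 0.31, adjusted p = 0.838). Total counts gave 0.055 (SE 0.60) for miR-221-5p and 0.54 (SE 0.41) for miR-222-3p. By edgeR with total counts 0 of the 3 arms were called (0 with an unadjusted p under 0.05), beside 0.915% of all tested miRNAs called lower and 32.6% called higher. The CPM of the 3 arms overlapped between the groups, while 45.4% of all tested miRNAs had CPM that did not overlap. The tested miRNAs include predicted ones with 0 CPM in the Intracellular libraries, which passed the filter through EV alone. Known miRNAs with few Intracellular counts, such as miR-138-5p (26), passed in the same way. In a fit of known miRNAs alone, 67 of 290 were called higher and 37 lower.

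The lower call of miR-221-3p with TMM was not stable to leaving out a single library. With the filter applied again, the call was lost without EV replicate 1 (a value of -0.56, edgeR adjusted p = 0.0931), EV replicate 2 (-0.57, adjusted p = 0.0805) and EV replicate 3 (-0.57, adjusted p = 0.0716). It was also lost without Intracellular replicate 1 (-0.29, edgeR adjusted p = 0.0988), Intracellular replicate 2 (-0.33, adjusted p = 0.275) and Intracellular replicate 3 (-0.53, adjusted p = 0.0580). Of these values, only those without Intracellular replicates 1 and 2 were smaller in size than the -0.51 with all libraries. With the same rows tested, the call held without Intracellular replicate 3 alone (-0.62, edgeR adjusted p = 0.0322). It was not called by DESeq2 (-0.50, adjusted p = 0.0541).

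The sign of each arm's fold change followed the scaling, as did the median of all 328 miRNAs. That median was -0.065 with TMM and 0.55 with total counts, a shift of 0.61. Relative to the median of all tested miRNAs, miR-221-3p was at -0.45 with TMM, -0.45 with RLE, -0.43 with upper-quartile scaling and -0.40 with total counts. miR-221-5p was at -0.49 with TMM and -0.49 with total counts, and miR-222-3p at -0.017 and -0.0067. So miR-221-3p lay below the middle of the distribution in these fits and miR-222-3p in it: with TMM, 100 of the 328 miRNAs had a lower log2 fold change than miR-221-3p, 92 than miR-221-5p and 161 than miR-222-3p. The tests above, and not these positions, decide the calls.

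**Figure D2:**
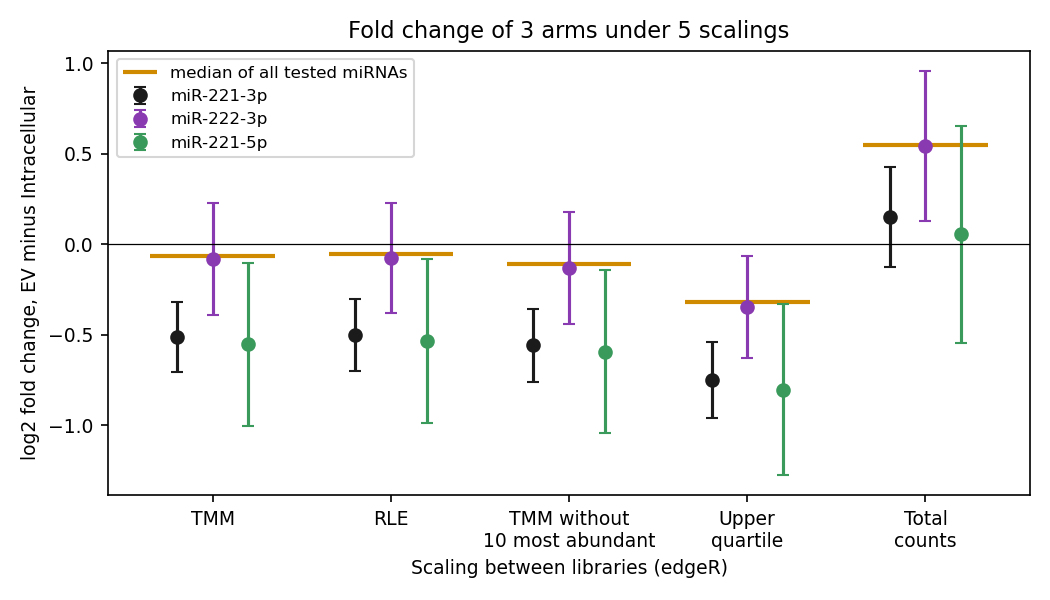
Log2 fold change, EV minus Intracellular, of miR-221-3p, miR-222-3p and miR-221-5p under 5 scalings in edgeR. Bars are standard errors and the orange line is the median of the 328 tested miRNAs. The arms move up and down with the median, which is at -0.065 with TMM and 0.55 with total counts.

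**Figure D3:**
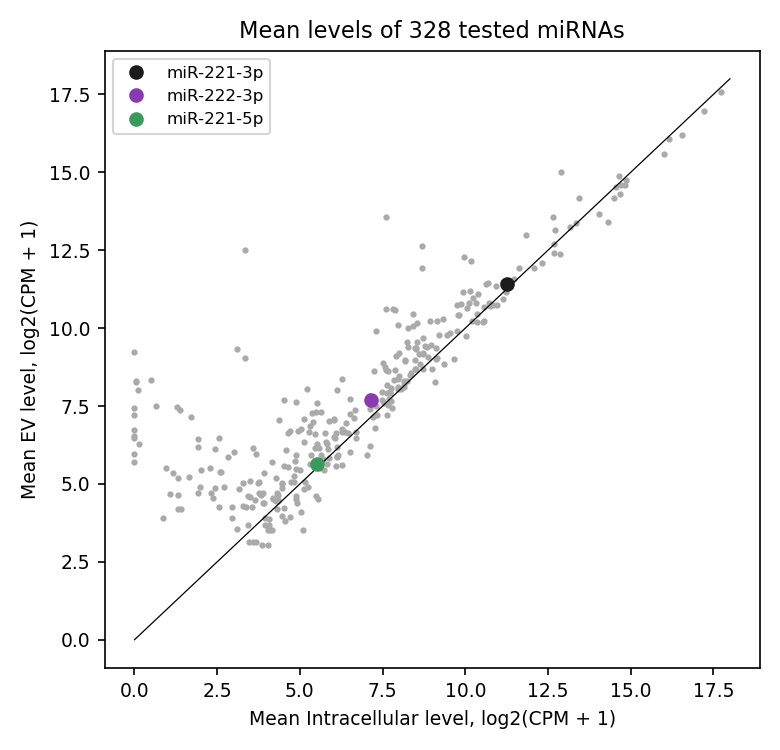
Mean level, log2(CPM + 1), of the 328 tested miRNAs in EV libraries (vertical axis) against Intracellular libraries (horizontal axis), with the line of equal levels. The miR-221-3p point is at a mean of 2737 CPM for EV and 2471 CPM for Intracellular samples, and the 3 marked arms lie near the line.

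The ratio of arms within a library does not depend on scaling between libraries. miR-221-5p made up 2.89% (95% Wilson interval 1.41 to 5.85), 1.33% (0.520 to 3.38) and 0.855% (0.235 to 3.06) of miR-221 counts in EV replicates 1, 2 and 3. In Intracellular replicates 1, 2 and 3 it made up 1.25% (0.940 to 1.66), 1.79% (1.55 to 2.06) and 2.30% (2.10 to 2.52). The 3p arm thus held nearly all miR-221 counts in each library, and the EV shares lay on both sides of the Intracellular ones. The mean share was 1.69% ± 1.07 in the EV libraries and 1.78% ± 0.526 in the Intracellular ones (SD, n = 3 each; 2-sided exact permutation p = 1). The intervals of the Intracellular libraries 1 and 3 did not overlap, so the share varied within that group by more than counting error.

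A limma fit of log2(5p/3p), with a prior count of 1, over the 73 precursors with both arms tested gave a difference of 0.13 for miR-221, EV minus Intracellular (SE 0.46, adjusted p = 0.828). In that fit 31.5% of precursors were called in either direction, 11 higher and 12 lower. Without Intracellular replicate 1, 4 were higher and 6 lower, and with a prior count of 0.25, 5 and 7. With a prior count of 5 the difference for miR-221 was 0.94 (limma adjusted p = 0.0133), in a fit that called 63.0% of precursors. A prior of that size is of the size of the EV counts of miR-221-5p, so it raises the EV ratio by construction. The prior count of 1 acts in the same direction on these few counts, to a lesser degree. With a prior count of 0.25 the difference was -0.12 (limma adjusted p = 0.876).

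For miR-222, the 5p arm had 0 of 59 pooled EV counts of both arms, which allows a share of up to 5.08%, against 2 of 1990 pooled Intracellular counts, a share of 0.101% (95% Wilson interval 0.0276 to 0.366). The EV counts therefore could not show a share as low as the Intracellular one. In Intracellular libraries, where both can be compared, the pooled share of the 5p arm was 2.03% (1.89 to 2.18) for miR-221, above the interval of miR-222. These intervals cover counting error only.

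The ratio of miR-221-3p to miR-222-3p was nearly constant across the Intracellular libraries and varied widely across the EV ones. The EV ratios rest on 8 to 27 counts of miR-222-3p, against 211 to 1186 in the Intracellular libraries. miR-221-3p had 29.4, 11.0 and 9.67 times the counts of miR-222-3p in EV replicates 1, 2 and 3, against 17.6, 17.6 and 16.9 times in Intracellular replicates 1, 2 and 3. EV replicate 1 was above all Intracellular libraries, and EV replicates 2 and 3 were below them. On the log2 scale, with a prior count of 1, the ratio was 3.78 ± 0.81 in the EV libraries and 4.11 ± 0.033 in the Intracellular ones (SD, n = 3 each). The difference of -0.33 was within the spread of the EV libraries (2-sided exact permutation p = 0.4, where 3 against 3 allows no p below 0.1). With a prior count of 0 it was -0.25 (2-sided exact permutation p = 0.7), since a prior lowers the ratio where miR-222-3p has few counts.

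As a share of both 3p arms, miR-222-3p took 3.29% (95% Wilson interval 1.68 to 6.36), 8.36% (5.81 to 11.9) and 9.38% (6.38 to 13.6) in EV replicates 1, 2 and 3. The Intracellular shares were 5.37% (4.71 to 6.12), 5.39% (4.98 to 5.83) and 5.60% (5.30 to 5.92). The intervals of EV replicates 1 and 3 just failed to overlap, and that of EV replicate 3 lay above all Intracellular ones. With 8 counts of miR-222-3p in EV replicate 1, the spread of the ratio in EV rests on few counts. Without EV replicate 1 the log2 difference was -0.80 (2-sided exact permutation p = 0.2, the smallest possible with 2 against 3). It was -0.15 without EV replicate 2 and -0.053 without EV replicate 3. Scaled by the miR-222-3p counts as library sizes, edgeR gave miR-221-3p a difference of -0.067 (SE 0.61, adjusted p = 0.965). Levels of different miRNAs carry the bias of adapter ligation, so the ratio itself is less certain than its comparison between libraries.

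**Figure D4:**
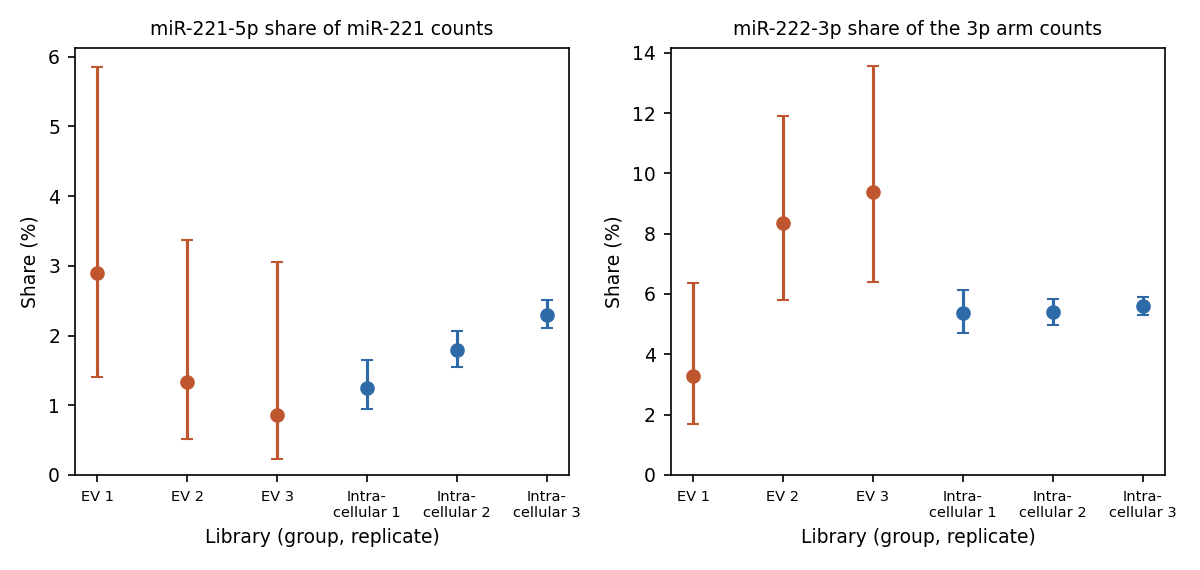
Share of miR-221 counts from the 5p arm (left panel) and share of 3p arm counts from miR-222-3p (right panel) in each library, EV in orange and Intracellular in blue, with 95% Wilson intervals. The Intracellular shares of miR-222-3p lie at 5.37% to 5.60%, and the EV shares at 3.29% to 9.38%.

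Together the 4 arms took 0.308%, 0.310% and 0.279% of all counts in EV replicates 1, 2 and 3, against 0.216%, 0.337% and 0.244% in Intracellular replicates 1, 2 and 3. EV libraries lay within the Intracellular range. The means were 0.299% ± 0.0170 in the EV libraries and 0.266% ± 0.0631 in the Intracellular ones (SD, n = 3 each; 2-sided exact permutation p = 0.4). As a share of the counts left without the 10 most abundant miRNAs, the mean was lower in EV, by a difference of -0.182 percentage points (2-sided exact permutation p = 0.2). Shares of that smaller total are larger, so this difference does not compare in size with the means above.

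In the order of mean levels, miR-221-3p was the 37th miRNA in EV, between miR-151-3p (2817 ± 465 CPM) and miR-3557-5p (2716 ± 399 CPM). It was the 29th in Intracellular libraries, between miR-145-5p (2863 ± 908 CPM) and miR-103-3p (2397 ± 699 CPM). miR-222-3p was the 149th in EV, between miR-322-3p (205 ± 48.6 CPM) and miR-30e-5p (202 ± 36.4 CPM). In Intracellular libraries it was the 146th, between miR-322-5p (146 ± 58.0 CPM) and miR-499-5p (138 ± 50.1 CPM). None of these neighbours differed from the arm beside it by more than the SD of the 3 libraries.

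Likeness across the 6 libraries was measured as the root mean square difference of log2(CPM + 1), each miRNA centred on its mean, among miRNAs with a mean of at least 500 CPM. The smallest values for miR-221-3p were 0.093 for miR-25-3p, 0.13 for miR-370-3p and 0.16 for miR-100-5p, where the median of 94 miRNAs was 0.39. miR-25-3p had 1629 ± 51.5 CPM in the EV libraries and 1519 ± 392 CPM in the Intracellular ones (SD, n = 3 each). For miR-222-3p the smallest values were 0.28 for miR-494-3p, 0.45 for miR-532-5p and 0.47 for miR-103-3p, with a median of 0.60. The 3p arm of its own cluster, miR-221-3p, came 17th of 95 with 0.52. The values of miR-222-3p include the counting error of its 8 to 27 EV counts.

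A list of other miRNAs of the X chromosome was set beside the pair. The list is not complete: 31 of all tested miRNAs matched RefSeq on X, the 3 tested arms of the pair among them. Of 48 rows on this list, 47 matched RefSeq by name, all of them on X, and 25 were tested. With TMM, 2 were called higher and 7 lower in EV by edgeR, beside 25.6% and 17.1% of all tested miRNAs, and the median log2 fold change was -0.50, against -0.065 over all tested miRNAs. With total counts 3 were higher and 0 lower (1 with an unadjusted p under 0.05, and 0 lower by limma on log2(TPM + 1)), beside 32.6% and 0.915% of all. The median was then 0.10, against 0.55 over all. The most abundant of the list was miR-450a-5p of the miR-322, miR-503 and miR-351 cluster, at 1947 ± 290 CPM in the EV libraries and 2273 ± 875 CPM in the Intracellular ones (SD, n = 3 each; log2 fold change -0.82 with TMM and -0.22 with total counts). It was followed by miR-351-5p (-0.50 with TMM and 0.10 with total counts), the let-7 relative miR-98-5p (-1.04 and -0.31) and miR-532-5p (-0.47 and 0.24). The 2 higher calls were miR-503-5p (1.52 with TMM, from 93 EV counts) and miR-501-3p (2.13, from 37 EV counts), named after their values were seen.

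A list of 12 other miRNAs studied in Schwann cells or injured nerve had 4 called higher and 5 lower in EV by edgeR with TMM, beside 25.6% and 17.1% of all tested miRNAs. Its median log2 fold change was -0.30, against -0.065 over all. With total counts 4 were higher and 0 lower (1 with an unadjusted p under 0.05, and 1 lower by limma on log2(TPM + 1)), beside 32.6% and 0.915% of all, and the median was 0.31, against 0.55. The most abundant was miR-21-5p, a miRNA induced in growth and injury, at 129126 ± 5937 CPM in the EV libraries and 152971 ± 11468 CPM in the Intracellular ones (SD, n = 3 each). Its log2 fold change was -0.97 with TMM (edgeR adjusted p = 0.0319) and -0.24 with total counts (adjusted p = 0.0505). miR-30c-5p (-0.80 with TMM and -0.22 with total counts), miR-148b-3p (-0.76 and -0.042) and miR-9a-5p (-0.89 and -0.34) came next by level. The 4 higher calls were miR-182 (2.24 with TMM), miR-34a-5p (0.75), miR-210-3p (1.45) and miR-138-5p (3.28, from 7 EV counts). They were named after their values were seen. With 26 Intracellular counts in all, miR-138-5p passed the filter on low counts through EV alone. That filter favours a higher value for such a miRNA, so its higher call, with either scaling, cannot be told apart from this selection. By level, miR-221-3p stood second to miR-21-5p among the miRNAs of this list, in EV as in Intracellular libraries.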

How the data were processed

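Small RNA from 3 EV and 3 Intracellular samples was sequenced. The submitters' processing notes name cutadapt and the build Rnor_6.0. What aligned and counted the reads is not given in the sources used here. The authors deposited a table of raw counts of reads for each mature miRNA (552 known and 519 predicted, 39 rows joining several names). Their deposited TPM values are these counts per 1000000 counts of a library, without regard to length (largest difference 4.8e-05). Columns were matched by group and replicate number.

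Counts were tested with edgeR 4.0.16 (R 4.3.3) by its quasi-likelihood test with robust dispersions and TMM scaling. Rows were filtered by filterByExpr (at least 10 counts at the median library size and 15 in total). Standard errors came from the F statistic. Arm ratios were fitted with limma 3.58.1 (trend, robust), and single values compared with exact permutation tests (scipy 1.17.1). DESeq2 1.42.0 was an alternative. The fits were also run on simulated data, with changes placed alternately up and down, and the outcome is not given here. That simulation does not bear on the choice between TMM and total counts. No molecular identifiers are named, so intervals and limits cover counting error only.

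The miRNAs, lists and tests were chosen with earlier results of these data known. Named miRNAs were the 4 arms, the 3 most alike to each 3p arm, its neighbours by level, and the 4 most abundant of the X chromosome and nerve lists. Higher calls of these lists and single cell type markers were also named, after their values were seen. Replicates were checked pairwise and each pair differed by more than sampling noise. The ratio of chi-square to its degrees of freedom, which also grows with depth, was 3.71 to 9.73 for the EV pairs. It was 284 and 353 for Intracellular replicate 1 against replicates 2 and 3, and 51.0 between Intracellular replicates 2 and 3.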

Additional observations from a re-analysis of the deposited data

How the results depend on the processing

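The lower call of miR-221-3p held with RLE, upper-quartile scaling, TMM without the 10 most abundant miRNAs, no filter and limma-voom. It was lost with at least 10 counts in 3 libraries (log2 fold change -0.38), known miRNAs alone (-0.38), DESeq2 (-0.50) and the replicate block (-0.49, edgeR adjusted p = 0.0565). Its sign turned with total counts (0.15), limma on log2(TPM + 1) (0.17) and limma on log2(TPM + 0.1) (0.17), which carry no TMM scaling. Leaving out 1 library gave -0.57 to -0.29 with the filter applied again and, with the tested rows kept, -0.53 to -0.32 where the call was lost (-0.46 without Intracellular replicate 2) and -0.62 where it held. miR-222-3p was not called in any fit. Its value of -0.082 turned to 0.54 with total counts, 0.42 with limma on log2(TPM + 1) and log2(TPM + 0.1), 0.052 with at least 10 counts in 3 libraries and 0.036 with known miRNAs alone, and ran from -0.39 to 0.26 without 1 library. It was above 0 without EV replicate 1 (0.21, or 0.26 with the tested rows kept), Intracellular replicate 1 (0.11 or 0.078) and Intracellular replicate 2 (0.091). miR-221-5p turned to 0.055 with total counts and ran from -1.19 to -0.26 without 1 library, with no call. Without 1 Intracellular library it failed the filter when this was applied again.

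The 84 higher calls over all miRNAs (of 328 tested) became 197 with no filter (of 1071). Without 1 EV library they were 61 to 69 (of 369 to 380), and without 1 Intracellular library 50 to 56 (of 195 or 196). With the tested rows kept they were 62 to 91 (of 328). Counts from fits with different numbers of tested miRNAs do not compare as shares. The 56 lower calls became 3 with total counts, 4 and 2 with limma on log2(TPM + 1) and log2(TPM + 0.1), and 92 with upper-quartile scaling. They were 36 (of 307) with at least 10 counts in 3 libraries and 37 (of 290) with known miRNAs alone. Without 1 EV library they were 26 to 52, and without 1 Intracellular library 27 to 55. With the tested rows kept they were 18 to 58 without 1 library (26 without EV replicate 2). The replicate block gave 87 and 46. Libraries share a number only: deviations from the group means of same-numbered libraries correlated at 0.0160 to 0.0243, and 0 of 6 libraries correlated best with its own number. The cause of these changes was not tested.

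The arm ratio difference of miR-221 was -0.12 with a prior count of 0.25, 0.94 with a prior count of 5, -0.10 with edgeR's diffSpliceDGE and -0.27 to 0.43 without 1 library. The ratio of the 3p arms kept its sign in every alternative tried, at -0.25 with a prior count of 0 and from -0.80 to -0.053 without 1 library. The difference in the share of the 4 arms ran from 0.00835 to 0.0686 percentage points without 1 library. It turned to -0.182 percentage points of a smaller total without the 10 most abundant miRNAs. Of the results for the 4 arms, the replicate block changed no other call, and over all precursors it gave 9 higher and 13 lower arm ratios, against 11 and 12. miR-222-5p and its arm ratio had no test in the design's fit, and with no filter its fold change would rest on 2 counts, so none is given. Depth limits the 5p arms and miR-222-3p in EV, where 1 count is 9.47 CPM or more.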
